A study of Zea mays with 27 samples.

Results

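The alpha-tubulin genes of maize described here are TUA1 (LOC100037751), tua3 (LOC542395), tua4 and tua5 (LOC542248). The 4 genes were chosen with earlier results of these data known. Another alpha-tubulin gene on the array, tua6 (LOC542582), is not among them. All spots that the array's gene annotation assigns to the 4 symbols were taken, and none was picked by its value. They made 333 of 16200 spots, which were 111 of 5400 cDNAs, each spotted 3 times. TUA1 had 30 cDNAs, tua3 16, tua4 57 and tua5 8. All 111 had values on at least 14 of the 27 arrays and were kept, and 104 had a value on every array.

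Alpha-tubulin pairs with beta-tubulin to form the dimers from which microtubules are built. In plant cells, cortical microtubules guide the deposition of cellulose during growth, and other microtubule arrays form the spindle and the phragmoplast during division. Plants carry several alpha-tubulin genes with closely similar coding sequences, so a cDNA of one gene can take up labelled RNA of another. The roles of the single genes in the adult leaf are not stated here. The files used here hold no cDNA sequences, and none are printed.

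The study measured gene expression under ultraviolet radiation in maize plants of differing flavonoid content. RNA of adult leaves was compared on 27 dual-colour cDNA arrays, each of which carried 1 group in Cy5 and another in Cy3. Plants were of genotype B,Pl, bz2, mutator or b,pl, as the labels spell them. Plants grew under a plastic filter named LE, PE or CA in the labels, abbreviations that are kept here, or in a greenhouse.

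The LE groups were b,pl with 2 arrays, B,Pl with 1, bz2 with 2 and mutator with 1. Plants under PE gave 2 arrays of b,pl, 3 of B,Pl, 1 of bz2 and 1 of mutator. Leaves taken 1 day after the PE plastic was removed gave 2 arrays of b,pl and 2 of B,Pl. Greenhouse plants after 8 hours of supplementary UV-B gave 2 arrays of b,pl and 1 each of B,Pl, bz2 and mutator, and b,pl greenhouse plants without UV-B gave 1. Under CA, B,Pl gave 2 arrays and bz2 and mutator 1 each, all against b,pl. The other channel held CA plants of the same genotype on the LE arrays, on the b,pl, bz2 and mutator PE arrays and on B,Pl PE replicate 1. On all remaining arrays it held b,pl plants under CA. Nothing in the labels tells whether replicate arrays came from separate plants, so p-values measure only the spread between arrays, which may be technical.

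Each value is the log2 ratio of both channels at a spot. Each array was centred on its median over all cDNAs, and its sign was set so that the first-named group counts as if it were in Cy5. The sources used here do not say which channel was the numerator. A positive value therefore stands for more RNA in the first-named group where the ratios are Cy5 over Cy3, and for less RNA where they are Cy3 over Cy5. Ratios give no level, so neither the rank of the 4 genes by abundance nor the presence of leaf cell markers could be read. In leaf samples fewer cells of a type and less RNA per cell cannot be told apart.

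Between 14715 and 16122 spots per array had a value, and 108 to 111 of the alpha-tubulin cDNAs were measured on each. The SD over cDNAs was 1.22 on B,Pl CA replicate 2 and 1.26 on b,pl PE replicate 2, and at most 0.82 on the other arrays. Title and source name give different dyes on 4 arrays, the single ones of mutator CA and bz2 CA, B,Pl PE replicate 2 and replicate 2 of b,pl after PE removal, and the titles were followed. Of 8 pairs of arrays that measured a group once in each dye, 4 had a Spearman correlation below 0 between the values as deposited, the sign a dye swap gives. The 4 alpha-tubulin gene medians had the same signed direction on both arrays of a pair in 13 of 32 cases, and in no pair did all 4. Replicate 2 of b,pl greenhouse UV-B and replicate 1 of b,pl after PE removal, both with the named group in Cy3, correlated at r = −0.40 over all cDNAs, so their direction is not settled. Over all cDNAs the median residual variance was 0.168 as labelled, 0.161 with the sign of the PE removal array turned and 0.205 with that of the UV-B array turned. Turned values are given for the comparisons of these groups that are described in detail. Among the 8 pairs, B,Pl PE replicates 2 and 3 had the most positive Spearman correlation as deposited, 0.61. Their direction is not settled either. Turning B,Pl PE replicate 3 gave a median residual variance of 0.152 over all cDNAs, the lowest for any single array turned. The 2 b,pl greenhouse UV-B arrays had a Spearman correlation of −0.40, the sign a dye swap gives.

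**Figure D1:**
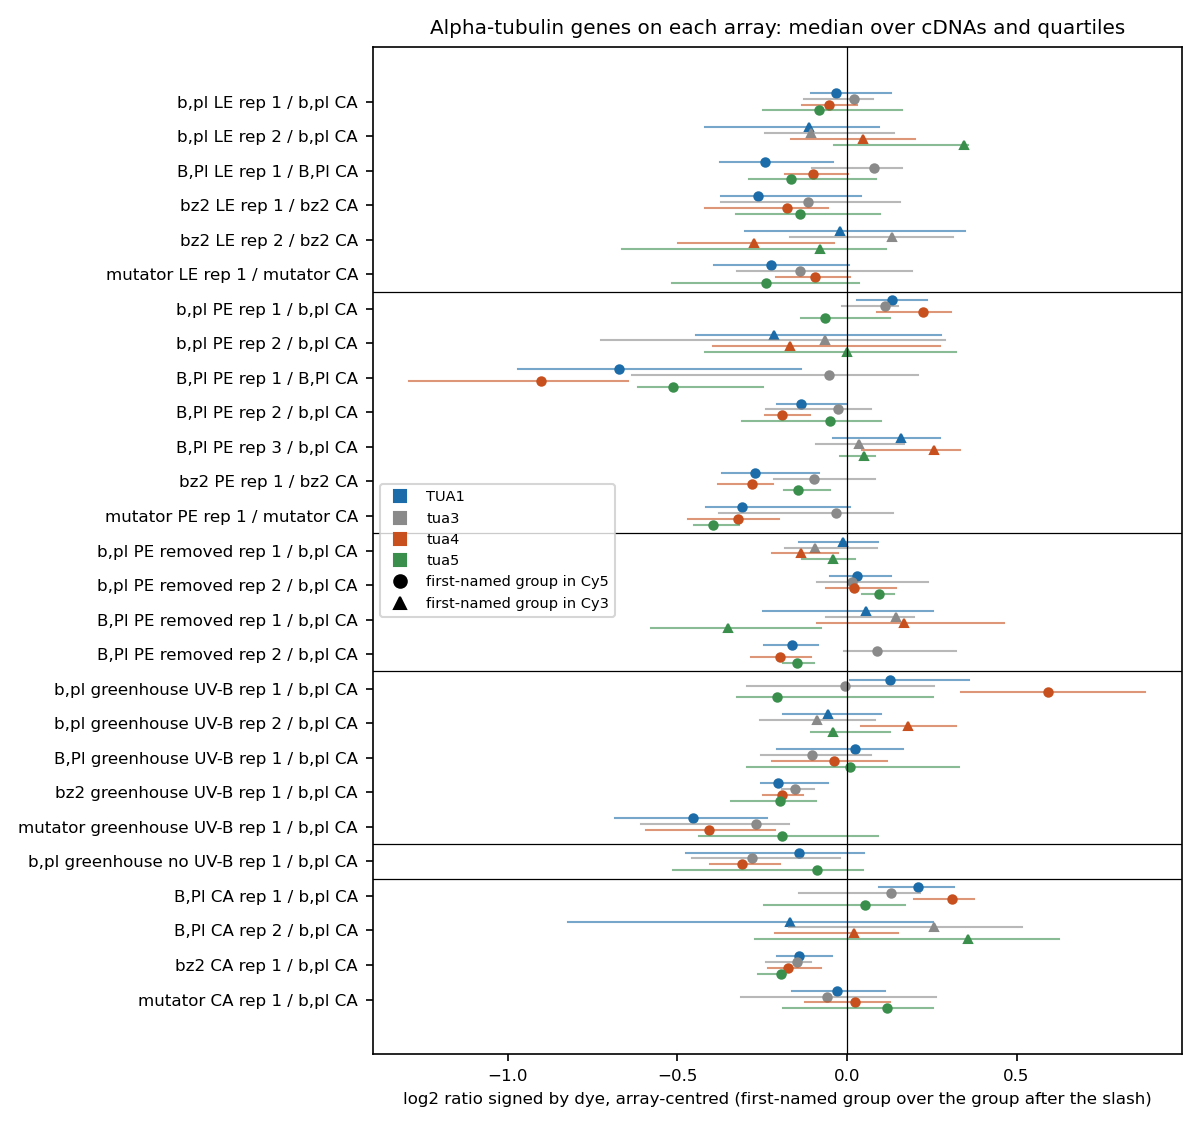
Median log2 ratio of the cDNAs of each alpha-tubulin gene on each of the 27 arrays, centred on the array median and signed by dye, with arrays grouped by filter, greenhouse and genotype. The widest gap between the 4 genes, 0.848, lies on B,Pl PE replicate 1, where tua3 stood at −0.05 and tua4 at −0.90.

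Over the 27 arrays the median of a gene's cDNAs was most often negative. TUA1 was negative on 20 arrays, tua3 on 17, tua4 on 17 and tua5 on 20. tua4 varied most, with an SD over arrays of 0.279, followed by TUA1 with 0.193, tua5 with 0.192 and tua3 with 0.126. All 4 genes had the same sign on 15 of 27 arrays, negative on 12 and positive on 3. The distance between the uppermost and the lowest of the 4 genes ran from 0.0490 on the bz2 UV-B array to 0.848 on B,Pl PE replicate 1. No gene was at one end throughout, since tua3 was uppermost on 10 arrays and lowest on 5, and tua5 uppermost on 7 and lowest on 8.

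Under LE, TUA1 was negative on all 6 arrays. Its medians were −0.03 and −0.11 in b,pl, −0.24 in B,Pl, −0.26 and −0.02 in bz2 and −0.22 in mutator, each against CA plants of its genotype. tua4 stood at −0.05 and 0.05 in b,pl, −0.10 in B,Pl, −0.18 and −0.27 in bz2 and −0.09 in mutator. 5 of these 6 tua4 values were negative, and only the array of the second b,pl replicate was not. tua5 was at −0.08 and 0.34 in b,pl, −0.16 in B,Pl, −0.14 and −0.08 in bz2 and −0.24 in mutator. The second b,pl replicate was again the exception among the tua5 values, and it was the uppermost of them by a wide margin. tua3 had 3 positive and 3 negative arrays between −0.14 and 0.13, and so took no side.

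The fitted LE minus CA difference averaged over the 4 genotypes was −0.17 for TUA1 (SE 0.12), −0.03 for tua3 (SE 0.09), −0.11 for tua4 (SE 0.14) and −0.07 for tua5 (SE 0.10). None of the 4 passed the limma test (adjusted p = 0.572 to 0.937), where 0.546% of all genes and unnamed cDNAs did. Within genotypes, too, none passed, against 0% in b,pl, 0.272% in B,Pl, 0.479% in bz2 and 0.0626% in mutator. Of the 111 cDNAs 74 were negative with a median of −0.10, against 50.2% negative and a median of −0.00 over all cDNAs. An unadjusted p under 0.05 was found for 13 of the 111, and for 17.1% of all cDNAs. The share among alpha-tubulins was below that background.

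Under PE the genes lay farther from 0 than under LE on some arrays. On B,Pl PE replicate 1, against B,Pl CA, TUA1 stood at −0.67, tua3 at −0.05, tua4 at −0.90 and tua5 at −0.51. On the bz2 array the values were −0.27 for TUA1, −0.10 for tua3, −0.28 for tua4 and −0.14 for tua5. The mutator array had −0.31 for TUA1, −0.03 for tua3, −0.32 for tua4 and −0.40 for tua5. All 4 genes were thus negative on these 3 arrays, and tua3 lay nearest to 0 on each.

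In b,pl the PE arrays took opposite directions for 3 of the genes. Replicate 1 had 0.13 for TUA1, 0.11 for tua3, 0.22 for tua4 and −0.06 for tua5. Replicate 2, the array of widest spread and with PE in Cy3, had −0.21 for TUA1, −0.06 for tua3, −0.17 for tua4 and −0.00059 for tua5. The fitted b,pl PE minus CA differences lay between −0.04 and 0.03 for the 4 genes, with SEs of 0.14 to 0.22. With the sign of replicate 1 turned they were −0.17 for TUA1, −0.09 for tua3, −0.20 for tua4 and 0.03 for tua5, and with that of replicate 2 turned they had the same sizes and the opposite signs.

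The other B,Pl PE arrays were set against b,pl under CA, and they too disagreed. Replicate 2 had −0.14 for TUA1, −0.03 for tua3, −0.19 for tua4 and −0.05 for tua5. Replicate 3, with PE in Cy3, had 0.16 for TUA1, 0.04 for tua3, 0.26 for tua4 and 0.05 for tua5. All 4 genes were negative on replicate 2 and positive on replicate 3.

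The fit joined these arrays with those of B,Pl under CA. B,Pl PE minus CA was −0.52 for tua4 (SE 0.22, 95% interval −1.02 to −0.02), −0.34 for TUA1 (SE 0.20), −0.33 for tua5 (SE 0.16) and −0.12 for tua3 (SE 0.14). None passed limma's test after adjustment (adjusted p = 0.596 for tua4), and over all genes and unnamed cDNAs 0% did. tua4 had an unadjusted p of 0.0423, and 8.14% of all genes and unnamed cDNAs had one under 0.05. Without B,Pl PE replicate 1 the differences were −0.13 for tua4, −0.01 for TUA1, −0.20 for tua5 and −0.19 for tua3. With the sign of replicate 3 turned they were −0.67 for tua4 (adjusted p = 0.0955), −0.43 for TUA1, −0.36 for tua5 and −0.14 for tua3. Turning that array took the median residual variance of the alpha-tubulin cDNAs to 0.116, against 0.143 as labelled.

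**Figure D2:**
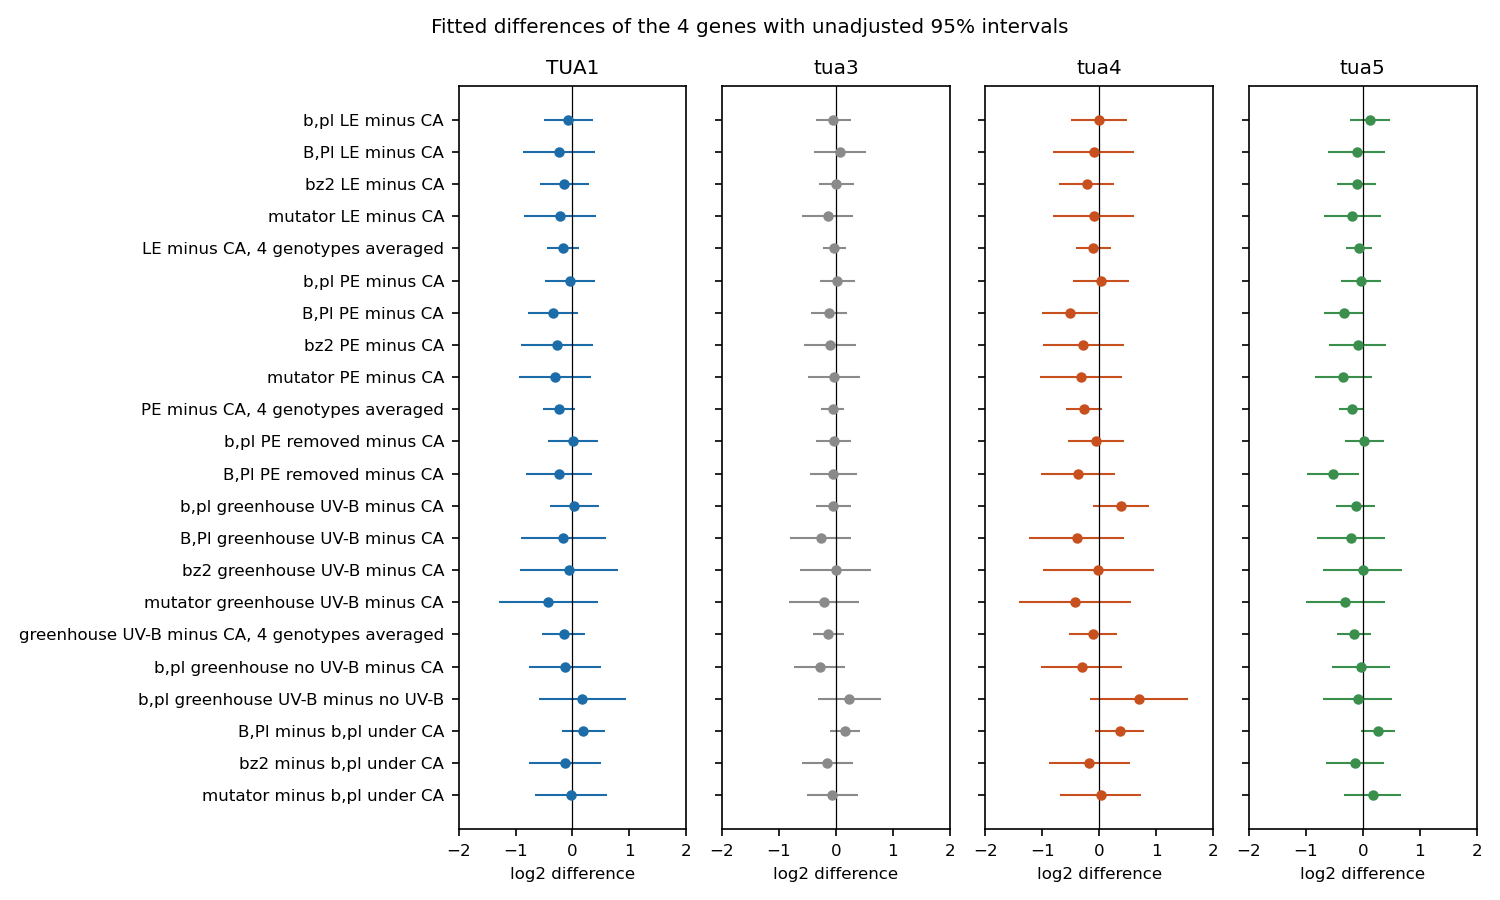
Fitted log2 differences of the 4 alpha-tubulin genes, each group minus the group it is set against, with 95% intervals from limma. Drawn are the comparisons with CA, between genotypes under CA, and of b,pl greenhouse UV-B with no UV-B. Of the 112 values in all 28 comparisons, none passed the adjusted test and 2 intervals exclude 0. These are tua4 in B,Pl PE minus CA and tua5 in B,Pl PE removed minus CA, both drawn.

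At the level of cDNAs, 87 of the 111 were negative in B,Pl PE minus CA with a median of −0.43, against 50.3% negative and a median of −0.01 over all cDNAs. None passed after adjustment, as none did over all cDNAs (0%), while 40 of the 111 had an unadjusted p under 0.05, against 9.04% of all cDNAs. These were 30 of 57 tua4 cDNAs, 7 of 30 of TUA1, 2 of 16 of tua3 and 1 of 8 of tua5. Most of the count thus came from tua4. It rested in large part on 1 array: without B,Pl PE replicate 1, 75 of 111 were negative, the median was −0.14 and 4 had an unadjusted p under 0.05, against 3.22% of all cDNAs. Without B,Pl PE replicate 3, 94 of 111 were negative and 56 had an unadjusted p under 0.05, against 16.4% of all. Without B,Pl PE replicate 2, whose dye labels conflict, 21 had such a p (5.87% of all), and 15 with its sign turned (4.31% of all). Without centring the median over all cDNAs was −0.28 and that of the alpha-tubulins −0.71, a distance of −0.43 as before. In bz2 93 of 111 were negative (median −0.25) and in mutator 90 of 111 (median −0.31), each from 1 array, and 0 of 111 had an unadjusted p under 0.05 in either, against 1.77% of all cDNAs in bz2 and 2.94% in mutator. Over all cDNAs 49.0% were negative in bz2 and 50.1% in mutator.

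Averaged over the 4 genotypes, PE minus CA was −0.24 for TUA1 (SE 0.13), −0.06 for tua3 (SE 0.09), −0.27 for tua4 (SE 0.14) and −0.20 for tua5 (SE 0.10). The smallest adjusted p of any gene in any comparison stood here, 0.468 for tua5 by limma, where 0% of all genes and unnamed cDNAs passed. Of the cDNAs 88 of 111 were negative with a median of −0.25, against 53.1% negative over all. An unadjusted p under 0.05 was found for 22 of the 111, and for 11.4% of all cDNAs. The count was 4 without b,pl PE replicate 2 (7.04% of all), 45 without B,Pl PE replicate 3 (16.9% of all), 11 without B,Pl PE replicate 1 (6.94% of all), 38 of 108 without b,pl PE replicate 1 (22.2% of all) and 35 without B,Pl CA replicate 2 (15.4% of all). LE minus PE averaged over the 4 genotypes was 0.07 for TUA1 (SE 0.17), 0.03 for tua3 (SE 0.12), 0.17 for tua4 (SE 0.19) and 0.13 for tua5 (SE 0.14). There, too, none of the 4 genes passed.

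One day after the PE plastic was removed, tua5 stood apart in B,Pl. The B,Pl arrays had −0.35 and −0.15 for tua5, 0.06 and −0.16 for TUA1, 0.14 and 0.09 for tua3, and 0.17 and −0.20 for tua4, in replicates 1 and 2 against b,pl under CA. tua5 was negative on both, tua3 positive on both, and TUA1 and tua4 changed sign between them. Replicate 1 carried the named group in Cy3. B,Pl PE removed minus CA was −0.52 for tua5 (SE 0.21, 95% interval −0.98 to −0.06), −0.24 for TUA1 (SE 0.26), −0.04 for tua3 (SE 0.19) and −0.37 for tua4 (SE 0.29). The difference of tua5 had an unadjusted p of 0.0308 and did not pass after adjustment by limma (adjusted p = 0.688), while 7.19% of all genes and unnamed cDNAs had an unadjusted p under 0.05. No array sets both groups side by side, and B,Pl CA enters through its own arrays against b,pl. Without replicate 1 tua5 stood at −0.33 and without replicate 2 at −0.69, and it was at 0.11 where the deposited values were read as group over other channel whatever the dye. B,Pl PE removed minus PE was −0.19 for tua5 (SE 0.21) and 0.10 for TUA1 (SE 0.26). For tua3 it was 0.08 (SE 0.19) and for tua4 0.15 (SE 0.29).

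In b,pl the removal arrays stayed near 0, with tua4 at −0.13 and 0.02, tua3 at −0.09 and 0.02, tua5 at −0.04 and 0.10, and TUA1 at −0.01 and 0.03. Fitted b,pl PE removed minus CA differences lay between −0.06 and 0.03. With the sign of replicate 1 turned they lay between 0.02 for TUA1 and 0.08 for tua4. Neither reading put a gene past its SE.

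Among the greenhouse arrays the genes lay farthest apart on replicate 1 of b,pl after UV-B. tua4 stood at 0.59 and 0.18 on the 2 b,pl UV-B arrays, against b,pl under CA. TUA1 was at 0.13 and −0.06, tua3 at −0.01 and −0.09, and tua5 at −0.21 and −0.04. tua4 was the uppermost gene on both arrays and positive on both, while tua3 and tua5 were negative on both. On replicate 1, 50 of 57 tua4 cDNAs were positive, as were 23 of 30 of TUA1, 8 of 16 of tua3 and 3 of 8 of tua5. On replicate 2, 47 of 57 tua4 cDNAs were positive.

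Fitted, b,pl UV-B minus CA was 0.39 for tua4 (SE 0.22), 0.03 for TUA1 (SE 0.20), −0.05 for tua3 (SE 0.14) and −0.12 for tua5 (SE 0.16), with an adjusted p of 0.526 for tua4 by limma. tua4 stood at 0.15 without replicate 1, at 0.62 without replicate 2, and at 0.21 with the sign of replicate 2 turned. With that array turned TUA1 was at 0.09, tua3 at 0.04 and tua5 at −0.08. Of the 111 cDNAs 74 were positive, with a median of 0.20, and 11 had an unadjusted p under 0.05, against 13% of all cDNAs. With the sign of replicate 2 turned, 84 were positive with a median of 0.14, and 0 had such a p, against 2.20% of all. Read as group over other channel, 0 had such a p as well, against 1.80% of all. Without replicate 1, 61 of 111 were positive with a median of 0.02, and 0 had such a p, against 4.65% of all. Without replicate 2, 83 were positive with a median of 0.33, and 21 had such a p, against 10.7% of all. Without centring the count was 5, against 8.37% of all.

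The b,pl greenhouse array without UV-B had −0.31 for tua4, −0.28 for tua3, −0.14 for TUA1 and −0.09 for tua5, against b,pl under CA. All 4 were negative there. UV-B minus no UV-B in b,pl greenhouse plants came to 0.70 for tua4 (SE 0.39), 0.24 for tua3 (SE 0.25), 0.17 for TUA1 (SE 0.34) and −0.09 for tua5 (SE 0.28), and limma called none (adjusted p = 0.902 for tua4). With the sign of UV-B replicate 2 turned the tua4 difference was 0.54 (SE 0.44), and those of TUA1, tua3 and tua5 were 0.22, 0.31 and −0.06. No array sets both groups side by side, and each was measured against b,pl under CA.

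In the other genotypes the greenhouse UV-B arrays, also against b,pl under CA, did not share the positive tua4 values. The mutator array had −0.45 for TUA1, −0.27 for tua3, −0.41 for tua4 and −0.19 for tua5. Negative values were found there for 26 of 30 cDNAs of TUA1, 14 of 16 of tua3, 52 of 57 of tua4 and 5 of 8 of tua5. The bz2 array had −0.20 for TUA1, −0.15 for tua3, −0.19 for tua4 and −0.20 for tua5, the closest agreement of the 4 genes on any array. The B,Pl array had values between −0.10 for tua3 and 0.02 for TUA1. tua3 was negative on all 5 greenhouse UV-B arrays, though never below −0.27.

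Set against CA plants of the same genotype through the fit, UV-B gave −0.43 for tua4 in mutator (SE 0.44), −0.02 in bz2 (SE 0.44) and −0.40 in B,Pl (SE 0.38). The single mutator CA and bz2 CA arrays that enter here have conflicting dye labels. Across the alternatives to the processing, these tua4 values ran from −0.47 to −0.30 in mutator, −0.37 to 0.64 in bz2 and −0.63 to −0.21 in B,Pl. Of the 111 alpha-tubulin cDNAs 104 were negative in mutator UV-B minus CA with a median of −0.39, against 51.1% negative over all cDNAs. Only 2 of these 111 had an unadjusted p under 0.05, against 2.18% of all cDNAs, and the comparison rests on 1 array of each group. Mutator minus b,pl at greenhouse UV-B was −0.79 for tua4 (SE 0.39), −0.48 for TUA1 (SE 0.34), −0.22 for tua3 (SE 0.25) and −0.01 for tua5 (SE 0.28). The tua4 difference had an unadjusted p of 0.068 and an adjusted p of 0.919 by limma. With b,pl UV-B replicate 2 turned it was −0.64 for tua4 (SE 0.44), −0.53 for TUA1, −0.30 for tua3 and −0.05 for tua5. In that comparison 93 of 111 cDNAs were negative, and 20 had an unadjusted p under 0.05, against 5.88% of all cDNAs. The number with such a p was 12 with b,pl UV-B replicate 2 turned (4.08% of all), 8 as group over other channel (2.47% of all), 4 without centring (2.62% of all) and 12 without the 4 arrays with conflicting dye labels (4.27% of all). Without b,pl UV-B replicate 1, 88 were negative and 5 had such a p (3.26% of all), and without the 2 arrays of widest spread 30 had (10.5% of all).

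Under CA no difference between genotypes passed the test for these genes. B,Pl replicate 1, against b,pl, had 0.21 for TUA1, 0.13 for tua3, 0.31 for tua4 and 0.05 for tua5. Replicate 2, in Cy3 and of wide spread, had −0.17 for TUA1, 0.26 for tua3, 0.02 for tua4 and 0.36 for tua5. On replicate 1 29 of 30 TUA1 cDNAs and 52 of 57 tua4 cDNAs were positive, with 1 tua4 cDNA at −4.35. Fitted, B,Pl minus b,pl was 0.36 for tua4 (SE 0.19), 0.27 for tua5 (SE 0.14), 0.19 for TUA1 (SE 0.17) and 0.16 for tua3 (SE 0.12), and no gene passed limma's test (adjusted p = 0.482 to 0.662). Without replicate 2 TUA1 stood at 0.41 and tua4 at 0.56, and without replicate 1 tua5 stood at 0.39. Positive values were found for 82 of 111 cDNAs, and 18 had an unadjusted p under 0.05, against 10.5% of all. Without B,Pl CA replicate 2, 94 were positive and 33 had such a p, against 7.09% of all. Without centring 99 were positive and 52 had such a p, against 18.5% of all, and as group over other channel 12 had one, against 8.46%.

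The bz2 array under CA had −0.14 for TUA1, −0.15 for tua3, −0.17 for tua4 and −0.19 for tua5, and the mutator array had −0.03 for TUA1, −0.06 for tua3, 0.02 for tua4 and 0.12 for tua5. Each genotype had 1 array, and dye labels conflict on both. With the dyes exchanged the fitted bz2 minus b,pl differences were 0.14 for TUA1, 0.14 for tua3, 0.17 for tua4 and 0.25 for tua5. As titled, they were −0.14, −0.15, −0.18 and −0.14 in the same order of genes.

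Over the 28 comparisons and 4 genes, 0 of 112 values passed limma's adjusted test and 2 had an unadjusted p under 0.05. Across all genes and unnamed cDNAs the share that passed was 0% in 17 comparisons and at most 0.546%. An F test asked whether the LE, PE or UV-B response of a gene differed between the 4 genotypes. None of these 12 tests passed, and the smallest unadjusted p was 0.241, for the UV-B response of tua4. Over all genes and unnamed cDNAs 0.273% passed for LE, 0% for PE and 0.021% for UV-B.

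Whether 2 of the genes parted was tested by setting each array relative to one gene and reading the other, which does not depend on the centring. Of 168 such differences, 6 pairs in 28 comparisons, 0 passed after adjustment by limma, and an unadjusted p under 0.05 was likewise found for 0. Over all features the share passing ran from 0% to 0.651%. The smallest unadjusted p was 0.0579, for tua4 minus tua5 in b,pl UV-B minus CA, a difference of 0.51 (SE 0.24) with an adjusted p of 0.413. The smallest adjusted p was 0.278, for tua3 minus tua5 in B,Pl PE removed minus CA, a difference of 0.47 (SE 0.25). tua3 minus tua4 was 0.40 in B,Pl PE minus CA (SE 0.26), where the array-level gap was widest. No difference between 2 of these genes was thus shown at this number of arrays.

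Likeness between genes was measured as the uncentred correlation of their medians over the 27 arrays, which does not change when an array's sign is turned. Most arrays carry b,pl under CA in 1 channel, so the values are descriptions. TUA1 and tua4 were most alike, at 0.86, with the same sign on 22 of 27 arrays. Over the signed values their Pearson correlation was 0.87 and Spearman's 0.78. Without the 2 arrays farthest from the median of TUA1, replicates 1 of B,Pl PE and B,Pl CA, these were 0.78 and 0.72. The likeness of TUA1 and tua4 was 0.91 over the 19 arrays with the named group in Cy5 and 0.43 over the 8 with it in Cy3. TUA1 and tua5 came to 0.57, with 0.84 over the Cy5 arrays and −0.49 over the Cy3 arrays, tua4 and tua5 to 0.50, TUA1 and tua3 to 0.47, tua3 and tua4 to 0.43 and tua3 and tua5 to 0.30. tua3 was therefore the gene least like the other 3.

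**Figure D3:**
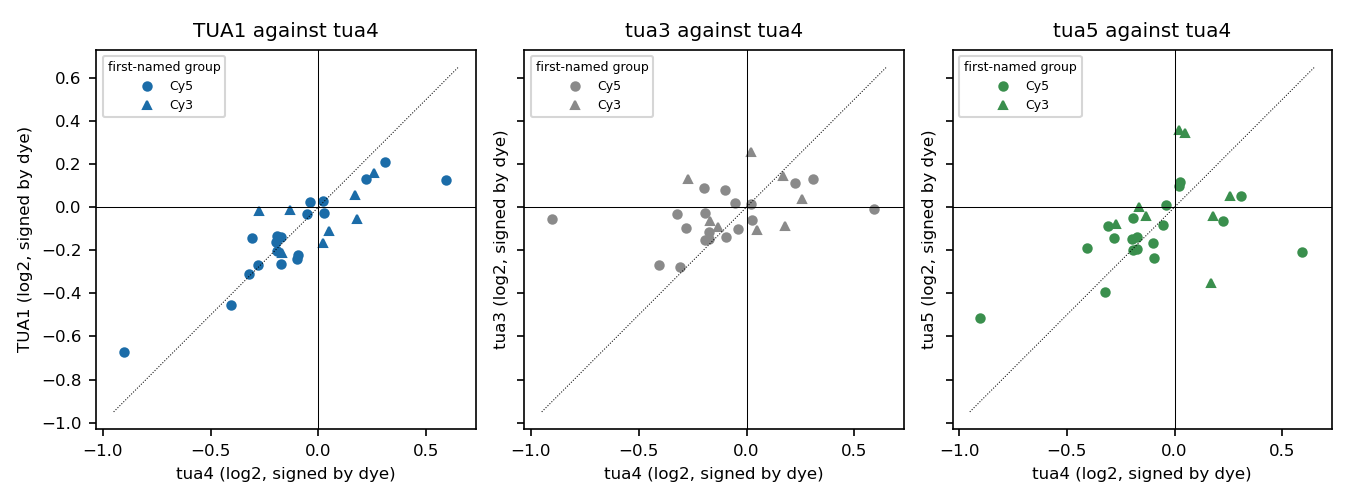
Gene medians on the 27 arrays (log2, centred and signed by dye) of TUA1, tua3 and tua5, each against tua4, 1 point per array. Of these, TUA1 had the highest likeness to tua4 (0.86) and tua3 the lowest (0.43).

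Among 106 other named genes with 2 or more cDNAs and the 4 themselves, the 3 most like TUA1 were tua4, the sucrose synthase gene sus1 (LOC542247) at 0.73 and the homeobox gene kn1 (LOC542391) at 0.64. For tua4 they were TUA1, kn1 at 0.80 and sus1 at 0.66. The genes most like tua5 were tua6 (LOC542582), another alpha-tubulin gene, at 0.62, then TUA1 and DrAp1 (LOC541965) at 0.53. tua3 had hon101 (LOC541973) at 0.57, the enolase gene eno2 (LOC542316) at 0.52 and pdi (LOC606409) at 0.51, and no alpha-tubulin gene among its 3.

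The cDNAs of a gene differed in how closely they followed it. A tua4 cDNA had a median likeness of 0.75 to the median of the other tua4 cDNAs, and 42 of 57 exceeded 0.5. For TUA1 the median was 0.39 with 12 of 30 over 0.5, for tua5 0.29 with 0 of 8, and for tua3 0.12 with 1 of 16. The cDNAs of tua3 thus shared little with one another, and its gene median near 0 is a median of unlike cDNAs. Some cDNAs were closer to another alpha-tubulin gene than to their own, 13 of 30 for TUA1, 11 of 16 for tua3, 19 of 57 for tua4 and 4 of 8 for tua5. Of the 19 in tua4, 13 were closest to TUA1. Between pairs of single cDNAs the median likeness was 0.48 within tua4, 0.17 within TUA1, 0.10 within tua3, 0.10 within tua5 and 0.26 between TUA1 and tua4.

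Least like their own gene were the cDNA at spot 7564 in TUA1 (−0.40), that at spot 9865 in tua3 (−0.29), that at spot 11773 in tua4 (−0.37) and that at spot 1930 in tua5 (−0.12). On B,Pl PE replicate 1, 54 of 57 tua4 cDNAs and 25 of 30 of TUA1 were negative, as were 7 of 8 of tua5 and 10 of 16 of tua3. The gene median stood at the percentile 7.95 of all single cDNAs on that array for tua4, at 14.1 for TUA1, at 20.1 for tua5 and at 46.3 for tua3. On the array with the widest gap between tua3 and tua4, nearly all tua4 cDNAs thus lay below 0, while those of tua3 lay on both sides.

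**Figure D4:**
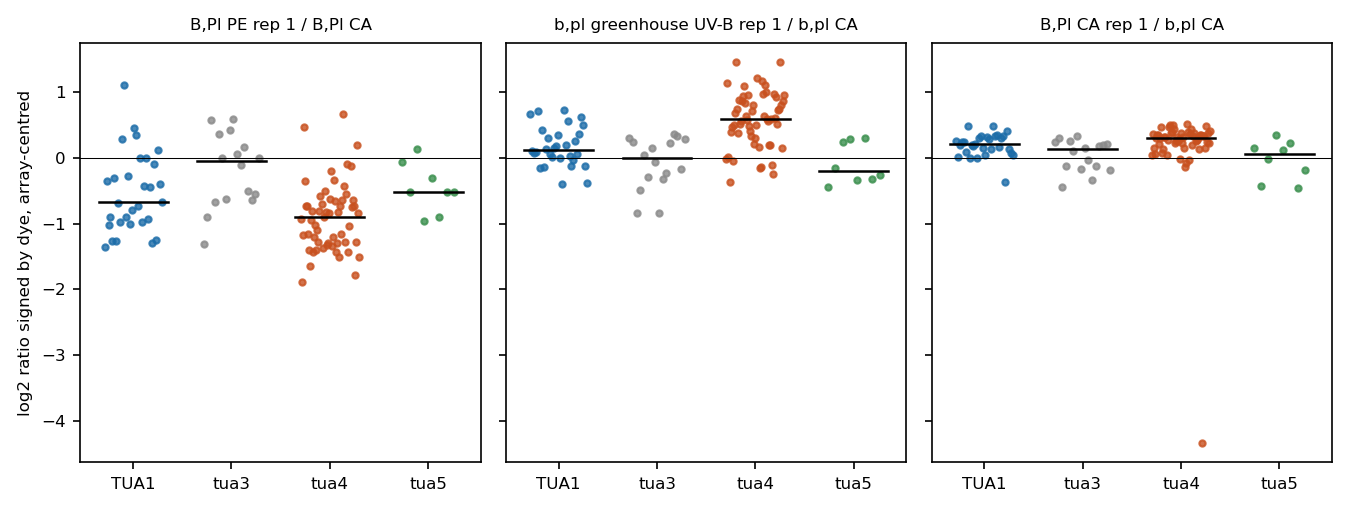
Log2 ratios of the single alpha-tubulin cDNAs, centred on the array median and signed by dye, on 3 arrays, with a line at each gene's median. Most tua4 cDNAs lie below 0 on B,Pl PE replicate 1 (54 of 57) and above 0 on b,pl greenhouse UV-B replicate 1 (50 of 57).

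The 111 cDNAs in 28 comparisons gave 3108 tests, of which 2 passed limma's adjusted test, and both belonged to the tua5 cDNA at spot 1930. Over all cDNAs the share that passed was highest in LE minus CA averaged, given next, and was 0.242% in B,Pl LE, 0.556% in bz2 LE and 0.0557% in mutator LE minus CA. It was 0.0186% in B,Pl UV-B, 0.0185% in bz2 UV-B and 0.0187% in averaged UV-B minus CA, 0.0186% in B,Pl and 0.0371% in bz2 minus b,pl at greenhouse UV-B, and 0% in most others. The number of called alpha-tubulin tests was 27 without b,pl PE replicate 1, of which 10 lay in b,pl PE minus CA, where 645 of all cDNAs passed, and 17 without the 2 arrays of widest spread, where 104, 177 and 325 of all cDNAs passed in the 3 comparisons concerned. Its values under LE, against CA plants of the same genotype, were −0.44 and −1.29 in b,pl, −0.29 in B,Pl, −0.65 and −1.05 in bz2 and −0.91 in mutator. All 6 were negative, but a called cDNA was named only if it had 1 sign on all arrays that set both groups side by side. Under PE it stood at 0.78 and 0.33 in b,pl, 0.13, 0.19 and −0.26 in B,Pl, 0.47 in bz2 and −0.12 in mutator. Positive values were found on 5 of these 7 PE arrays, and all 6 LE arrays lay below every PE array. The closest were −0.29 on the B,Pl LE array and −0.26 on B,Pl PE replicate 3, whose direction is not settled. B,Pl PE replicates 2 and 3 were set against b,pl under CA, unlike the LE arrays of B,Pl, bz2 and mutator.

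For this cDNA LE minus CA averaged over the 4 genotypes was −0.86 (SE 0.12, limma adjusted p = 0.0156), where 1.29% of all cDNAs passed. LE minus PE averaged was −0.97 (SE 0.16, limma adjusted p = 0.0428), where 0.318% of all cDNAs passed, and no array sets LE beside PE. By genotype, LE minus CA was −0.87 in b,pl, −0.56 in B,Pl, −0.85 in bz2 and −1.18 in mutator. PE minus CA averaged was 0.11 (SE 0.12). The b,pl greenhouse plants without UV-B also stood low, at −1.25 relative to CA (SE 0.27, adjusted p = 0.244).

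As a set, the other 7 tua5 cDNAs did not share this, though single ones stood low. The lowest of the 7 was at −0.93 in bz2 LE minus CA and at −1.08 in mutator LE minus CA. An unadjusted p under 0.05 by limma was found for 3 of 8 tua5 cDNAs in LE minus CA averaged. For the other 7, the LE minus CA values averaged over genotypes had a median of 0.05 and ran from −0.68 to 0.35, and 2 of 7 were negative. The cDNA at spot 1930 was also the one least like the rest of its gene over all arrays. Its 3 replicate spots had a median SD of 0.0618 per array, with 0.692 on the array where they differed most. The LE minus CA call was lost without b,pl LE replicate 2, at −0.81. Of the 17 fits that left out 1 array of a group with more than 1, it held in the other 16. Groups with 1 array, B,Pl LE and mutator LE among them, were not left out. The LE minus PE call held in only 3 of 17 such fits, those without b,pl PE replicate 1, B,Pl CA replicate 2 or B,Pl PE replicate 3, while its value stayed between −1.02 and −0.93. Both calls were lost without centring, without the dye term, and with the deposited values read as group over other channel, where the LE value was −0.03.

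**Figure D5:**
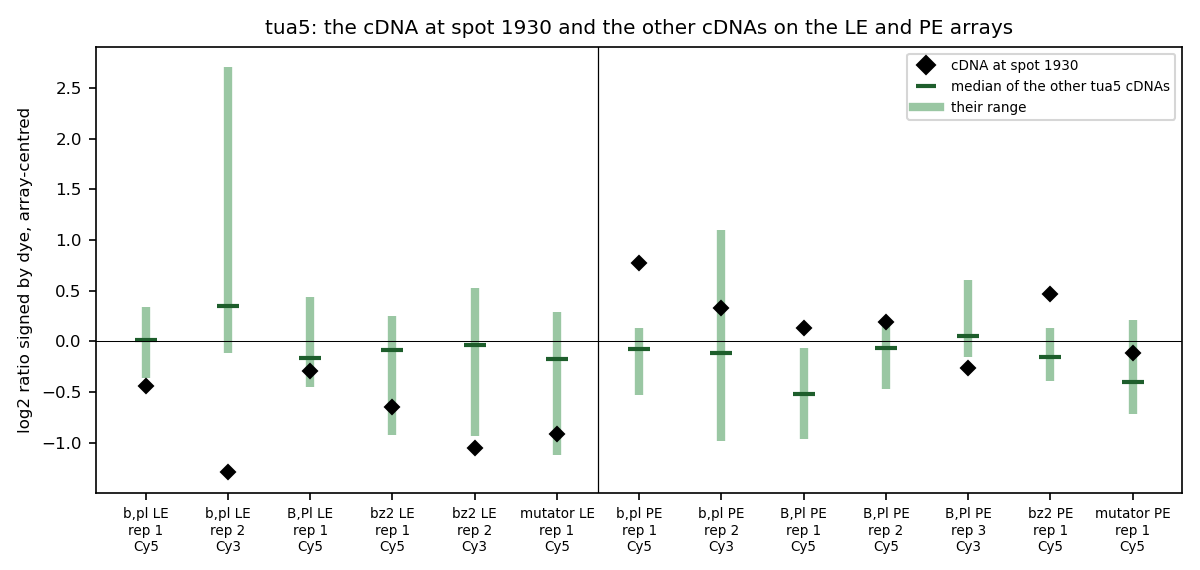
Log2 ratios of the tua5 cDNA at spot 1930 on the LE and PE arrays, and of the other 7 tua5 cDNAs on the same arrays, centred and signed by dye. The cDNA at spot 1930 is negative on all 6 LE arrays (−1.29 to −0.29) and between −0.26 and 0.78 on the 7 PE arrays.

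Other genes of the cytoskeleton and of growing cells were counted for comparison. The other tubulins on the array were the alpha-tubulin tua6 and the beta-tubulins tub3 and tub6, with 6 cDNAs in all, and none passed in any of the 28 comparisons. All 6 were negative in PE minus CA averaged over the genotypes (median −0.16), as the median of the 111 cDNAs was. In LE minus CA averaged over the genotypes all 6 were positive (median 0.14). The median over cDNAs was there −0.20 for TUA1, −0.04 for tua3, −0.11 for tua4 and 0.03 for tua5. Of the tua5 cDNAs 5 of 8 were positive. In B,Pl PE minus CA 4 of the 6 were negative (median −0.18). Of 4 cDNAs of the actin-binding profilins PRO4 and PRO5 and the actin-depolymerizing factor ADF3, 4 were positive in B,Pl PE minus CA (median 0.29), against the −0.43 of the alpha-tubulins, and none passed. This was not so in other genotypes. All 4 were negative in b,pl PE minus CA (median −0.35), and 3 of 4 in bz2 and in mutator. Averaged over the genotypes, their PE minus CA median was 0.005.

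Of 21 cDNAs of growing and dividing cells, which stand for pcna2, MCM6, cdc2, his2b5 and kn1, 1 passed in LE minus CA averaged over the genotypes, with a positive value (limma adjusted p = 0.0416). Over all cDNAs 69 of 5361 passed there. The median of the 21 was −0.02 in that comparison, with 11 negative, and −0.05 in B,Pl PE minus CA. These medians pool unlike genes, among them kn1 with 11 cDNAs and a likeness of 0.80 to tua4. Of the leaf cell markers only Lhcb5-2, a light-harvesting protein gene, was on the array by name, with 2 cDNAs, both negative in B,Pl PE minus CA (median −0.42) and neither passing. The part of cell composition in the alpha-tubulin values was not tested.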

How the data were processed

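Leaf RNA was measured on 27 dual-colour cDNA arrays. The deposited values are log2 ratios, 1 per spot, as read from the values: of those over 2 in size, 16.3% had a base 2 antilog whole within 0.0001, and for base e 0.0751%. How the authors corrected background, normalised and chose the numerator is not given in the sources used here. Groups and dyes follow the labels' titles. Gene names come from GEO's platform annotation, which is old. It named 811 of 5400 cDNAs in 213 genes, and 3 of the 4 alpha-tubulin symbols matched the RefSeq gene table (Zm-B73-REFERENCE-NAM-5.0), tua4 not. No genome build is named, so no positions are given.

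Consecutive triplicates were averaged (median SD within triplicates 0.0375, against 0.180 when shifted by 1 spot), arrays were centred on their median, and gene values are medians over cDNAs. One linear model (limma 3.58.1, R 4.3.3) with 18 groups relative to b,pl CA and a dye term left 8 residual degrees of freedom. Tests were two-sided, with Benjamini-Hochberg adjustment over all 4802 genes and unnamed cDNAs, or all 5400 cDNAs, and a threshold of 0.05. The scripts were tested on simulated data. The number of arrays limits the precision. The members and lists were chosen with earlier results of these data known. Named are the 4 genes in every comparison, called cDNAs with 1 sign on all direct arrays (up to 4 per comparison, smallest p first), the cDNA least like its gene, and the 3 most alike named genes. Alternatives were centring, scaling, spot and gene summaries, the array minimum, the dye term, the direction of single arrays and leaving out arrays. Only the omission of the 2 arrays of widest spread was added after seeing the data.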

Additional observations from a re-analysis of the deposited data

How the results depend on the processing

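Across 35 alternatives 0 of 3900 values of the 4 genes, and no pair difference or F test, passed the adjusted limma test. The smallest adjusted p was 0.0955, for tua4 in B,Pl PE minus CA when B,Pl PE replicate 3 was turned. Without centring 23 of 112 gene differences changed sign, with values read as group over other channel 18, and under each other alternative at most 9. The count of called alpha-tubulin cDNAs, 2, was 0 without centring, 10 with arrays scaled and 0 as group over other channel. With an array's sign turned it was 5 for b,pl PE removed replicate 1, 0 for replicate 1 of b,pl PE, 1 for replicate 2 of B,Pl PE, 12 for replicate 3 of B,Pl PE and 1 for b,pl greenhouse UV-B replicate 2. It ran from 0 without b,pl LE replicate 2 to 27 without b,pl PE replicate 1 when single arrays were left out. It was 1 without the 4 arrays with conflicting dye labels and 17 without the 2 arrays of widest spread. Calls over all cDNAs moved too. In LE minus CA and LE minus PE averaged, where 69 and 17 passed, they were 120 and 253 with arrays scaled, 107 and 425 with B,Pl PE replicate 3 turned, 115 and 167 with b,pl PE removed replicate 1 turned, 82 and 394 without b,pl PE replicate 1, and 177 and 325 without the arrays of widest spread. The cause of these changes was not tested.

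For the tua5 cDNA at spot 1930, LE minus CA averaged passed in 30 of 35 alternatives. It did not pass without centring (−0.86), without the dye term (−0.73), as group over other channel (−0.0295) or with b,pl PE replicate 1 turned (−0.82). With single arrays left out it ran from −0.90 to −0.81 and passed in 16 of 17 cases. LE minus PE averaged passed in 14 of 35. It did not pass without centring (−0.69), without the dye term (−1.004), as group over other channel (−0.33), with the sign of b,pl greenhouse UV-B replicate 2 (−0.98), b,pl PE replicate 1 (−0.79) or B,Pl PE replicate 2 (−0.95) turned, or without the arrays with conflicting dye labels (−0.96). With single arrays left out it ran from −1.02 to −0.93 and passed in 3 of 17. No paired analysis was possible because replicate numbers were given in accession order and pair no samples. Most groups rest on 1 or 2 arrays, so intervals are wide, and tubulin cDNAs may bind RNA of more than 1 gene.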
